A study of Mus musculus with 4 samples.

Results

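The genes described here make up the DNA replication and S-phase machinery of NIH-3T3 cells, an established line of mouse fibroblasts. The list held 40 gene symbols, and every probe whose accession matched one of them was taken, which gave 47 probes for 40 of the 36838 gene names on the arrays. They fell into 5 arms by role, with 3 genes of G1/S control, 10 of licensing, 18 of the replication fork, 5 of nucleotide supply and 4 of chromatin assembly behind the fork. The rule used no expression value.

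Cultures were grown to confluency in medium with 10% serum, and total RNA was hybridized to 4 one-colour Agilent arrays of 1 slide, 1 array per group. One culture was untreated, and the others each received AR7, CA39 or CA77 at 20 µM for 24 h. These are related small molecules made to activate chaperone-mediated autophagy, in which single proteins are carried into lysosomes. DMSO was the solvent of the compounds, whereas none is given for the control, so that the vehicle and the compounds cannot be told apart in a change that all treated cultures share. The position on the slide is likewise tied to treatment, with untreated in row 1 and the compounds in row 2, and these cannot be told apart. The CA77 array was read in scan 2. There was 1 array per group, so no difference below has a replicate check and no test was run.

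Before a cell copies its DNA, the origin recognition complex, Cdc6 and Cdt1 load the Mcm2 to Mcm7 ring onto origins, a step called licensing. At the start of S phase cyclin-dependent and Cdc7 kinases turn the ring into an active helicase with Cdc45 and the GINS complex, and polymerases, the sliding clamp Pcna and its loader then copy both strands. Most of these genes are targets of E2F transcription factors, which the retinoblastoma protein holds back in resting cells, so their RNA is high in dividing cultures and low in quiescent fibroblasts.

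All 40 members were detected, that is, called well above background by the scanner software, on all 4 arrays, and none of their differences was a bound. Levels are given as normalized log2 intensity, and a difference is the log2 value of 1 array minus that of another. Where 4 levels are given without names, they follow the order untreated, AR7, CA39, CA77. Probes printed 10 times on each array gave a measurement tolerance of 0.16 (log2, or 11.7%) for the difference of 2 arrays, which covers error within an array and not between cultures. Over all probes, the share detected ran from 52.2% on the CA39 array to 69.7% on the untreated array. Of 8 fibroblast markers, 7 were detected on the untreated, AR7 and CA77 arrays and 8 on the CA39 array, where Pdgfrb alone was added, and their summed level (log2) was 19.9 in untreated cells, 19.6 after AR7, 20.2 after CA39 and 19.7 after CA77. With CA39, 7 of the 8 were higher beyond the tolerance, with a median of 0.54, among them Fn1 (1.47) and Col1a1 (1.06), while Col1a1 differed by -1.04 with AR7 and -0.83 with CA77. Of 12 markers of epithelium, blood, endothelium, muscle and fat cells, 11 had a named probe and 6 to 8 were detected per array, with a summed level between 11.6 and 11.7. The epithelial Cdh1 and the fat cell gene Adipoq were detected on no array, while Epcam was detected on the CA39 array alone. Krt5, Cd3e, Pecam1, Cdh5, Myod1 and Des were detected on all 4 arrays, and Ptprc and Plin1 on 2. With CA39, Krt5 differed by 0.60 and Des by -0.82, while Cd3e (-0.16), Pecam1 (-0.02), Cdh5 (0.01) and Myod1 (0.01) lay within the tolerance. The part of these markers in the results was not tested.

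With CA39, replication genes were lower as a group. The median difference from the untreated array over the 40 members was -0.31 (log2), which is 19.5% lower, with 35 members below 0 and an SD of 0.25 between members. The median over all genes compared was -0.02, while the median over 4449 genes detected on every array, whose mean level lay within the members' own quartiles, was 0.09% lower. With CA39, 14850 of the 27894 genes compared lay below 0, as did 2233 of these 4449. In the bulk RNA of a culture, fewer cells in S phase and less of these RNAs per cell cannot be told apart. With AR7 the members' median was -0.06 and with CA77 it was -0.04, beside -0.03 and -0.04 over all genes. Below 0 were 29 members with each of them, beside 15532 of 27855 genes with AR7 and 15873 of 28126 with CA77.

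Counted against the tolerance, 28 of 40 members were lower with CA39, where 32.8% of all genes and 25.5% of the genes at the members' level were. That count lay between 20 and 34 across the alternatives, 1 of which held only 25 members. One member, Rfc3, was higher beyond the tolerance, where 20.9% of all genes were, and 11 lay within it. Past 1.5-fold (0.58 on the log2 scale), 4 members were lower and 0 higher, where 4.90% and 6.93% of all genes were, and 0 members passed 2-fold in either direction, where 5.29% of all genes did. Among the 4449 genes at the members' level, 108 were lower and 159 higher past 1.5-fold, and 45 were lower and 40 higher past 2-fold. The count past 2-fold was 2 with arrays scaled to the 75th percentile, and 1 in the series table and with the quantile-normalized processed signal. The lower level was thus spread over many members, with a small difference in most. In the deposited series table, with each array scaled to its 75th percentile, the members' median was -0.42. It was -0.22 when the median of the neighbouring spots was subtracted from each spot's difference. The number of members past 1.5-fold lower was 3 with an offset of 50, 7 in that table and with arrays scaled to the 75th percentile, and 1 of the 25 members with a probe in the grid rows over 160.

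With AR7, 6 of 40 members were lower and 2 higher beyond the tolerance, where 26.2% and 15.0% of all genes were, and 13.8% of the genes at the members' level were lower. These counts were 11 and 0 with arrays scaled to the 75th percentile, and 3 and 1 of 25 in the grid rows over 160. With CA77, 3 members were lower and 3 higher, where 30.4% and 19.5% of all genes were, and 16.7% of the genes at the members' level were lower. Neither compound had a member past 1.5-fold in either direction, where 3.22% of all genes were lower and 3.28% higher with AR7, and 3.53% lower and 4.26% higher with CA77. At the members' level such genes were fewer, with 21 lower and 34 higher of 4449 with AR7, and 45 and 24 with CA77. Likewise 0 members passed 2-fold with either, where 3.06% of all genes did with AR7 and 3.22% with CA77. All 3 comparisons share the untreated array.

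**Figure D1:**
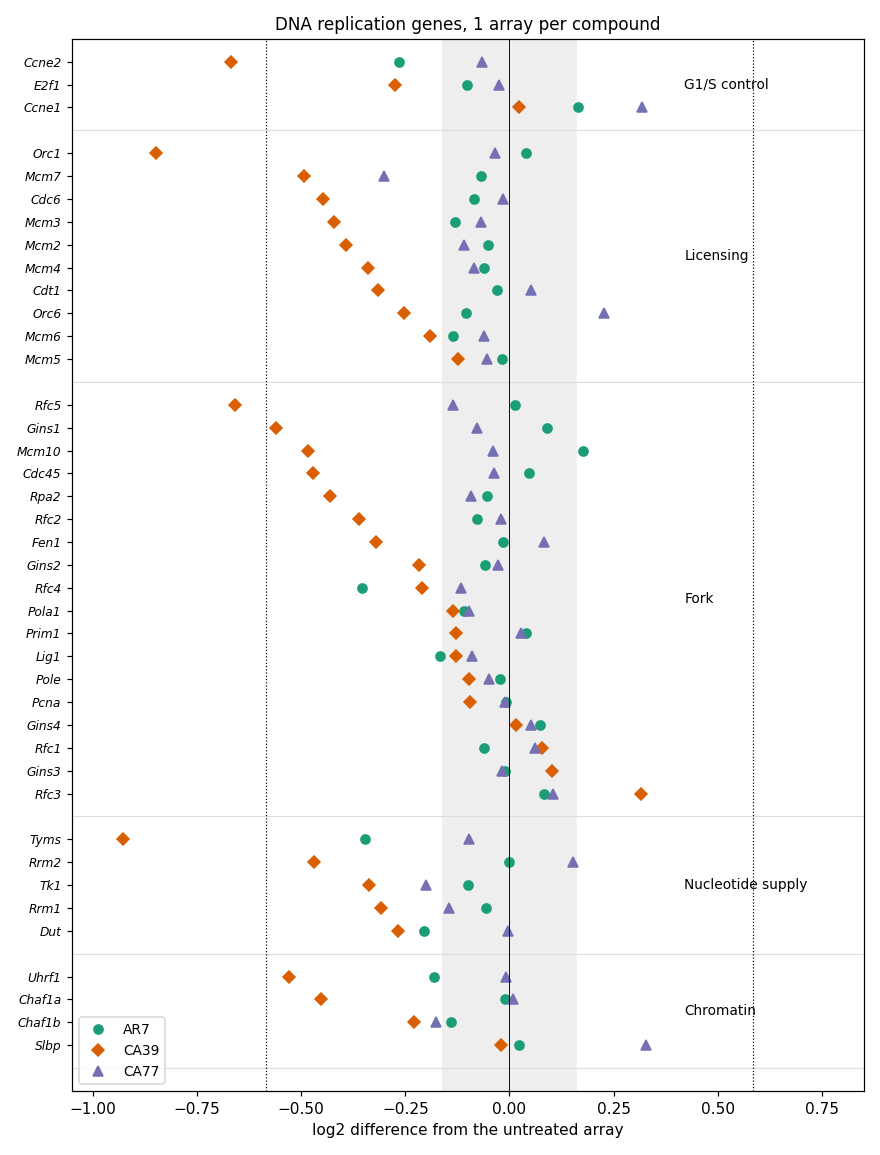
Log2 difference from the untreated array (x axis) of the 40 members, grouped by arm (y axis), with 1 point per compound and gene. The grey band is the tolerance of 0.16, dotted lines mark 1.5-fold, and 28 CA39 points lie left of the band, while AR7 has 6 there and CA77 has 3.

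**Figure D2:**
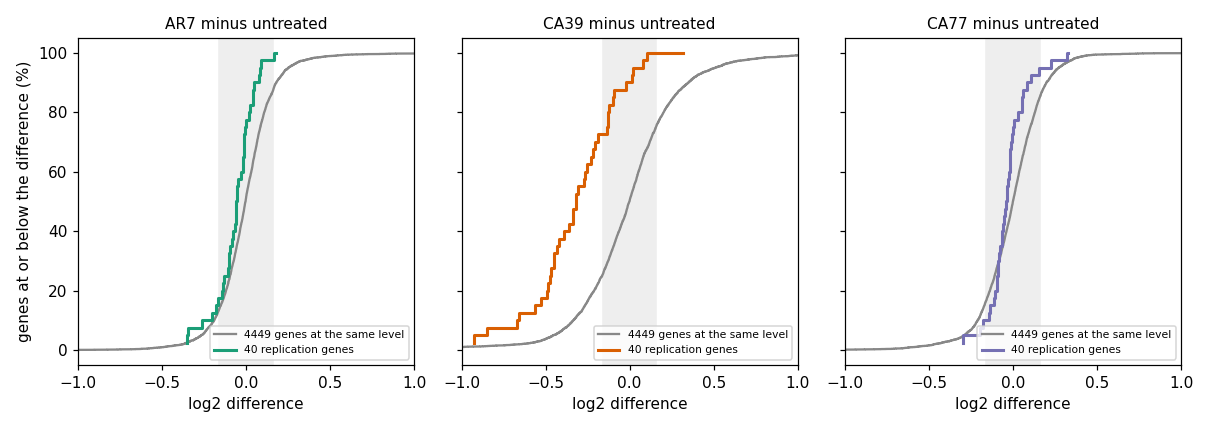
Share of genes (y axis, percent) at or below each log2 difference from untreated (x axis, shown from -1 to 1), for the 40 members and for the 4449 genes detected on all arrays at the members' level. The CA39 curve of the members is shifted left, with its median at -0.31, whereas the curves of AR7 and CA77 lie close to those of the other genes.

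Among the arrays, CA39 held the lowest value for 33 of 40 members. For 22 members it lay below each of the other 3 arrays by more than the tolerance, which was so for 17.0% of the 20594 genes detected on all arrays. No member had its untreated, AR7 or CA77 array below all the others by that margin (0 of 40 for each), which was so for 3.67%, 3.68% and 5.30% of genes. The untreated array held the highest value for 23 members, AR7 and CA77 for 7 each and CA39 for 3. For lowest and highest values without that margin the share over all genes was not counted, so those counts only describe the members.

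The G1/S control arm holds E2f1, a transcription factor that switches on S-phase genes, and the cyclins E1 and E2 (Ccne1, Ccne2), which activate Cdk2 at S-phase entry. Ccne2 read 7.80 without treatment, 7.53 after AR7, 7.13 after CA39 and 7.73 after CA77. It was thus lowest with CA39, by 0.67 against untreated, and below untreated by 0.26 with AR7. Its size depended on the processing, as the CA39 difference was -0.52, short of 1.5-fold, with an offset of 50, -0.94 with the quantile-normalized processed signal, -1.08 with arrays scaled to the 75th percentile and -1.11 in the series table. E2f1 read 12.52, 12.41, 12.24 and 12.49, so only the CA39 array was low, by 0.27. Ccne1 went another way, with 13.94 in untreated cells, 14.10 after AR7, 13.96 after CA39 and 14.26 after CA77. Its value was highest with CA77, but the gap to AR7 (0.155) lay within the tolerance, and AR7 was above untreated by 0.164, just beyond it. A second Ccne1 probe was higher with CA77 too, by 0.46 against 0.32. The median of the arm was -0.27 with CA39, -0.10 with AR7 and -0.03 with CA77. With CA39 it was -0.16 with the local median subtracted and -0.47 over the 2 genes in the grid rows over 160.

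In the processing reported, licensing was the arm with the lowest median with CA39, at -0.37, next to -0.34 for nucleotide supply and for chromatin. Across the alternatives the median ran from -0.47 to -0.27 for licensing, -0.44 to -0.29 for nucleotide supply and -0.46 to -0.32 for chromatin. The order of these arms thus depended on the processing. Of the licensing genes, 9 of 10 were lower beyond the tolerance. The arm's medians were -0.06 with AR7, where 0 of 10 were lower or higher, and -0.06 with CA77. Orc1, the largest and ATP-binding subunit of the origin recognition complex, read 11.04 in untreated cells, 11.08 after AR7, 10.19 after CA39 and 11.01 after CA77. The other arrays lay close together, and CA39 was 0.85 below untreated, or 44.5% lower. Orc6, the smallest subunit of the complex, read 14.99, 14.88, 14.73 and 15.21, lowest with CA39 (-0.25) and highest with CA77 (0.23). Cdc6, the loader that joins the complex at origins in G1, was lower by 0.45 with CA39, and its second probe by 0.56. Cdt1, which brings the helicase ring to origins, was lower by 0.32.

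The helicase subunits differed from untreated by unequal amounts. Mcm7 read 16.01 without treatment, 15.94 after AR7, 15.51 after CA39 and 15.71 after CA77, so it was low with CA39 (-0.49) and, to a lesser degree, with CA77 (-0.30), the lowest value of any member with that compound. Mcm3 was lower by 0.42, Mcm2 by 0.39 and Mcm4 by 0.34 with CA39. Mcm6 read 17.07, 16.93, 16.88 and 17.01, a CA39 difference of -0.19 that was close to the tolerance. Mcm5 read 15.32, 15.30, 15.20 and 15.27, the only licensing gene within the tolerance with CA39 (-0.12). The subunits act as a ring of 1 copy each, but the probes differ in sequence and signal, so the sizes are those of single probes.

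**Figure D3:**
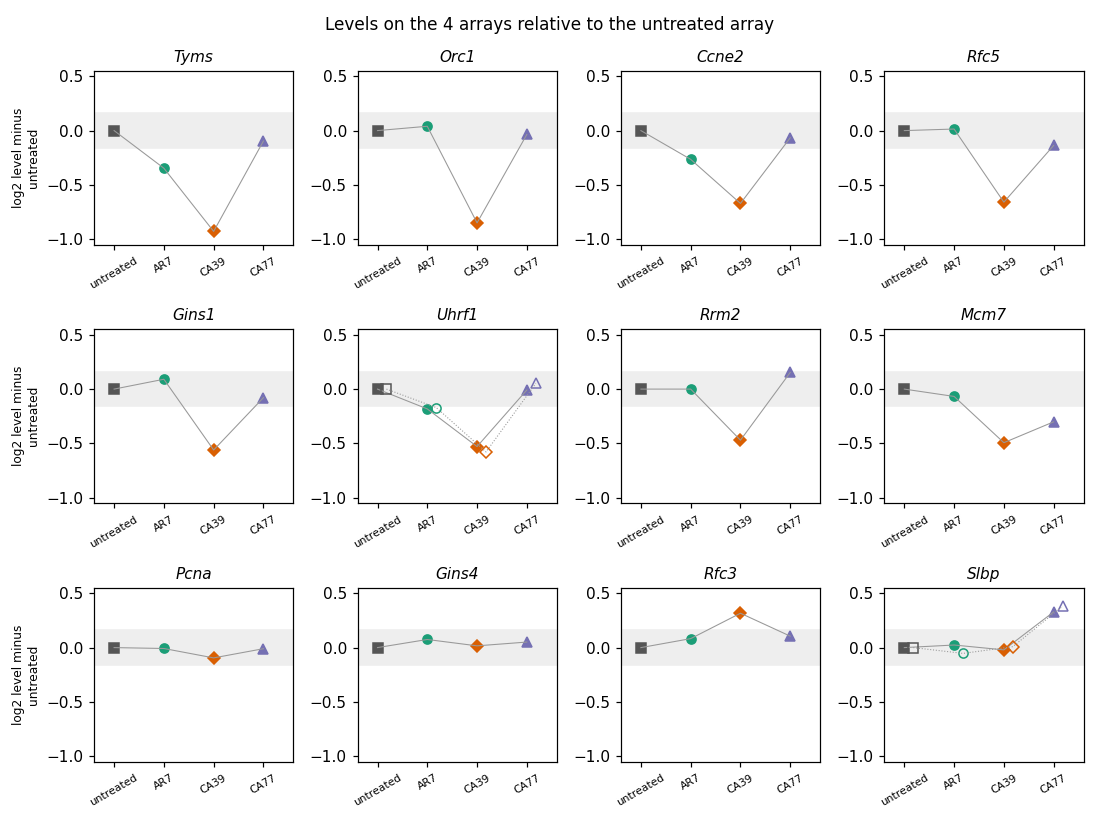
Log2 level minus the level on the untreated array (y axis) on each of the 4 arrays (x axis) for 12 members, with the grey band at the tolerance of 0.16. Filled points are the brightest probe and open points a second probe where there is one, and the CA39 point is lowest in the panels from Tyms to Mcm7, within the band for Pcna, Gins4 and Slbp and highest for Rfc3.

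The 18 genes of the fork arm were split with CA39, and their median of -0.17 was the least negative of the arms in the processing reported. In this arm 9 of 18 were lower beyond the tolerance, 1 was higher and 8 lay within it. Among the factors that turn the ring into a helicase, Gins1 read 12.88 in untreated cells, 12.97 after AR7, 12.32 after CA39 and 12.80 after CA77. It was just short of 1.5-fold with CA39, at -0.56. Mcm10, which helps to activate the helicase, read 14.25, 14.43, 13.77 and 14.21 and was lower by 0.48 with CA39, while its AR7 value was the highest difference of any member with that compound (0.18). Cdc45, a subunit of the moving helicase, was lower by 0.47. The other subunits of the GINS complex stood apart from Gins1, as Gins2 differed by -0.22, Gins4 by 0.02 and Gins3 by 0.10 with CA39.

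The clamp loader showed the widest range within 1 complex. Rfc5 read 15.32 in untreated cells, 15.33 after AR7, 14.66 after CA39 and 15.18 after CA77, and CA39 stood 0.66 below untreated. Rfc3 read 12.54, 12.62, 12.85 and 12.64, the only member that was higher with CA39 beyond the tolerance (0.32). The remaining subunits differed by -0.36 (Rfc2), -0.21 (Rfc4) and 0.08 (Rfc1). The spots around the Rfc2 probe had a median CA39 difference of -0.23, the lowest for any member. Rfc4 was the lowest member with AR7, with 14.49 without treatment, 14.13 after AR7, 14.28 after CA39 and 14.37 after CA77. Its AR7 difference was -0.35 with this probe but -0.11 with its second probe, a gap beyond the tolerance, so the AR7 value of Rfc4 holds for 1 probe.

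With CA39 the brightest probes of Pcna, Pola1, Prim1 and Pole lay within the tolerance. Pcna, the sliding clamp, read 17.12 in untreated cells, 17.11 after AR7, 17.03 after CA39 and 17.11 after CA77, and its CA39 difference was -0.09. Pola1 and Prim1, which make the RNA-DNA primers, differed by -0.14 and -0.13, and Pole, the catalytic subunit of the leading-strand polymerase, by -0.10. A second and dimmer Pole probe was at -0.21. Of the genes that finish the lagging strand, Fen1, the flap endonuclease, was lower by 0.32, while Lig1, the ligase that seals the nicks, differed by -0.13. Rpa2, a subunit of the protein that coats single-stranded DNA, was lower by 0.43. With AR7 the arm's median was -0.01 and with CA77 -0.03, where 0 of 18 genes were beyond the tolerance in either direction.

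All 5 genes of nucleotide supply were lower beyond the tolerance with CA39, with a median of -0.34. Tyms, thymidylate synthase, which makes dTMP from dUMP, had the lowest CA39 value of all members, with 10.39 in untreated cells, 10.05 after AR7, 9.47 after CA39 and 10.30 after CA77. It was 0.93 below untreated with CA39, or 47.4% lower, and 0.35 below it with AR7. Rrm2, the cell-cycle regulated subunit of ribonucleotide reductase, read 15.72, 15.72, 15.25 and 15.87, so that CA39 was low (-0.47) and CA77 the highest. Rrm1, its large subunit, was lower by 0.31 with CA39. Tk1, the S-phase thymidine kinase, read 15.68, 15.58, 15.34 and 15.48, lower by 0.34 with CA39 and by 0.20 with CA77. Dut, which removes dUTP, read 14.86, 14.66, 14.60 and 14.86, low with AR7 (-0.20) and CA39 (-0.27) and level with untreated on CA77.

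Of the chromatin arm, 3 of 4 genes were lower with CA39 and the median was -0.34. Uhrf1, which guides maintenance methylation to newly copied DNA, read 14.76 without treatment, 14.58 after AR7, 14.24 after CA39 and 14.76 after CA77. Its CA39 difference was -0.53 and that of its second probe -0.58. Chaf1a and Chaf1b, subunits of the histone chaperone that assembles nucleosomes behind the fork, were lower by 0.45 and 0.23. Chaf1a read 13.60, 13.59, 13.15 and 13.60, with CA39 alone low. Chaf1b read 14.83, 14.69, 14.60 and 14.65, below untreated on every treated array. Slbp, which binds the stem-loop of histone messages, read 12.42, 12.44, 12.40 and 12.75, so its CA39 value was level (-0.02) and CA77 stood 0.33 above untreated, the highest of any member with that compound. The second Slbp probe was higher by 0.38 with CA77.

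A second probe with a value was at hand for 7 members. With CA39 the second probe had the sign of the first in 6 of 7, and the largest gap between them was 0.11, for Pole. The exception was Slbp, with -0.02 and 0.01. The sign was shared in 5 of 7 with AR7, where the largest gap was 0.24 (Rfc4), and in 5 of 7 with CA77, where it was 0.14 (Ccne1). Between compounds the largest gaps were 0.20 for CA39 against AR7 (Rfc4), 0.23 for CA77 against AR7 (Cdc6) and 0.25 for CA39 against CA77 (Chaf1b), each beyond the tolerance.

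The compounds were used at 1 dose and 1 time and can be set side by side in 3 pairs, again with 1 array each. CA39 was lower than AR7 by more than the tolerance in 24 of 40 members and higher in 1, where 34.0% and 27.4% of all genes were, with a members' median of -0.25. Past 1.5-fold lower were 4 members, Orc1 (-0.89), Rfc5 (-0.67), Mcm10 (-0.66) and Gins1 (-0.65), where 7.48% of all genes were. CA39 was lower than CA77 in 26 members and higher in 1, where 31.0% and 25.3% of all genes were, with a median of -0.27. Here Tyms (-0.83), Orc1 (-0.81), Rrm2 (-0.62) and Ccne2 (-0.60) were past 1.5-fold lower, where 6.51% of all genes were. The Ccne2 value was -0.47 with an offset of 50, short of 1.5-fold, as it was at -0.58 relative to the median of all genes, and -0.97 in the series table. Against AR7 the count past 1.5-fold was 1 when the neighbouring spots were subtracted, and 1 of 25 in the grid rows over 160.

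Between CA77 and AR7 most members lay within the tolerance. CA77 was lower than AR7 in 3 members and higher in 7, where 19.7% and 19.8% of all genes were, and 0 members were lower past 1.5-fold, where 3.00% of all genes were. The median difference was 0.02, from Mcm7 (-0.23) to Orc6 (0.33). These pairs share arrays and are not independent of each other.

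Since E2F factors control many of these genes, the promoters of the members were read for E2F-type letters. RefSeq promoter sequences of mouse assembly GRCm38.p6, from 250 bases before to 50 bases after a transcription start, were matched by symbol for 33 of 40 members. The members not matched were Ccne2, Gins1, Gins2, Gins4, Mcm4, Pole and Rfc2. The letters TTTCCCGC, TTTCGCGC, TTTGCCGC or TTTGGCGC, searched on both strands, occurred in 12 of 33 members (36.4%) against 2.60% of the 27025 genes with a promoter (2.26% of all 32851 promoters of that length). Without the first T the 7 letters occurred in 21 members (63.6%) against 10.9% of genes (9.57% of promoters). CCAAT occurred in 21 members (63.6%) against 41.1% of genes (37.4% of promoters), and TTTGAA in 4 members (12.1%) against 20.2% (17.9%). A match describes letters in this window and is neither a bound site nor a cause.

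The median CA39 difference was -0.25 over the 12 members with the 8 letters and -0.31 over the 21 without them. For the 7 letters it was -0.31 both with and without them. For CCAAT it was -0.31 with and -0.30 without, and for TTTGAA -0.36 over 4 members with and -0.27 over 29 without. These values are descriptions, since no spread between cultures is known. The 120 bases before the start are shown for 3 members with low CA39 values (Orc1, Tyms, Rfc5), for 2 with values above 0 (Gins3, Rfc3) and for Mcm6, the member with the most matches, 5′ to 3′ on the strand of the gene, with capitals for matches to the 8 letters or to their last 7. Orc1 (chr4:108579334-108579453, plus strand) was lower by 0.85 and has 1 match at -27 from the start. Mcm6 (chr1:128359706-128359825, minus strand) has 3 matches to the 8 letters and differed by -0.19. Gins3 (chr8:95633439-95633558, plus strand) has 1 match at -41 and differed by 0.10. Rfc3 (chr5:151651209-151651328, minus strand) has 2 matches, 1 of them within the bases shown, and was higher by 0.32. Tyms (chr5:30073626-30073745, minus strand) and Rfc5 (chr5:117389024-117389143, minus strand), lower by 0.93 and 0.66, have no match in the window.
Orc1: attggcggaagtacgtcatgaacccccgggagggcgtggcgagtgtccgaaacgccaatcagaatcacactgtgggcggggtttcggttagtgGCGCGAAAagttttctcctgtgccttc
Mcm6: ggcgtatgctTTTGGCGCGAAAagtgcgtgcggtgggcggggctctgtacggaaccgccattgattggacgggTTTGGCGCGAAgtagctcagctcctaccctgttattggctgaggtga
Gins3: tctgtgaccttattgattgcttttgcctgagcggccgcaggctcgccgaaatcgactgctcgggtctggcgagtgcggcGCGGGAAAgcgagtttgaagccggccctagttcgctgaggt
Rfc3: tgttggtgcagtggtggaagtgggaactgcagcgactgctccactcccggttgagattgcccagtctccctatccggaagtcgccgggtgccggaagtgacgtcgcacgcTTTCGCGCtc
Tyms: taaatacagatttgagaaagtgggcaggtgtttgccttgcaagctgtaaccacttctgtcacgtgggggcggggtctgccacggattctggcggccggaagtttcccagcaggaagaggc
Rfc5: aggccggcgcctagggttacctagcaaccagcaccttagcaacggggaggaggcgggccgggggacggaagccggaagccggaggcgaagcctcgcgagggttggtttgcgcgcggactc

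Genes of the same pathway outside the 40 members were taken from further lists. Of 32 other replication genes, 21 were lower and 0 higher beyond the tolerance with CA39, where 32.8% and 20.9% of all genes were, and the median was -0.25, beside -0.05 with AR7 and 0.02 with CA77. The range ran from Cdc7 (-0.63), the kinase that fires licensed origins, to Mtbp (0.06). Cdc7 read 7.96 in untreated cells, 7.91 after AR7, 7.33 after CA39 and 7.99 after CA77, with CA39 alone low. It was the only gene of this list past 1.5-fold, a count that was 0 with an offset of 50 or with the local median subtracted, and 3 with arrays scaled to the 75th percentile or in the series table. Of the polymerase subunits in this list, Pold1 was lower by 0.47, Pole2 by 0.46, Pold3 by 0.41, Pold2 by 0.27, Pola2 by 0.26, Prim2 by 0.19 and Pole4 by 0.16, while Pole3 differed by -0.13, within the tolerance. Timeless, a fork protection factor, was lower by 0.57, and Gmnn, the inhibitor of Cdt1, by 0.49.

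Of 19 other genes of nucleotide supply, 11 were lower and 3 higher beyond the tolerance with CA39, against the same 32.8% and 20.9% of all genes, with a median of -0.19. Among the lower, Dctd (-0.35) and Samhd1 (-0.33) each had a second probe that differed by 0.02. The higher genes included Tk2 (0.68), the mitochondrial thymidine kinase, and Rrm2b (0.19), the ribonucleotide reductase subunit used outside S phase. Tk2 read 10.12 in untreated cells, 10.24 after AR7, 10.80 after CA39 and 10.21 after CA77, the only gene of this list past 1.5-fold. In contrast, the S-phase counterparts Tk1 and Rrm2 were among the members that were lower on that array.

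Of 26 genes of the G1/S switch, 23 were detected on an array compared, 9 of them lower and 3 higher beyond the tolerance with CA39, with a median of -0.11. These counts lay near the 32.8% and 20.9% of all genes, so they are no result about the list. Lower past 1.5-fold were E2f2 (-0.74), an activating E2F, and Cdc25a (-0.63), the phosphatase that activates Cdk2. E2f2 read 12.67 without treatment, 12.62 after AR7, 11.93 after CA39 and 12.53 after CA77. Higher were Rb1 (0.41), the retinoblastoma protein, and the Cdk inhibitors Cdkn1b (0.29) and Cdkn2d (0.18). Cdkn1a, the p53 target that arrests the cycle, differed by -0.05, while a second probe of it differed by -0.31, beyond the tolerance. Cdkn1c and Cdkn2b were detected on no array, and of Cdkn2a a second probe was detected on the untreated array alone. Cdk6, a kinase partner of D cyclins, was lower by 0.57 with CA39 and higher by 0.33 with AR7 and 0.47 with CA77.

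Mitotic genes were read as a reference for division in general. All 14 lay below 0 with CA39 and 13 were lower beyond the tolerance, where 32.8% of all genes were, with a median of -0.35 beside -0.31 over the replication members. Ccnb2, cyclin B2, had the largest difference (-0.93) and Cdc20 the smallest (-0.06). The list's median was 0.04 with AR7, where 0 were lower and 3 higher beside 26.2% and 15.0% of all genes, and -0.08 with CA77, where 2 were lower beside 30.4%. The proliferation marker Mki67 differed by -0.18 with CA39, while its second probe differed by -0.10, within the tolerance.

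**Figure D4:**
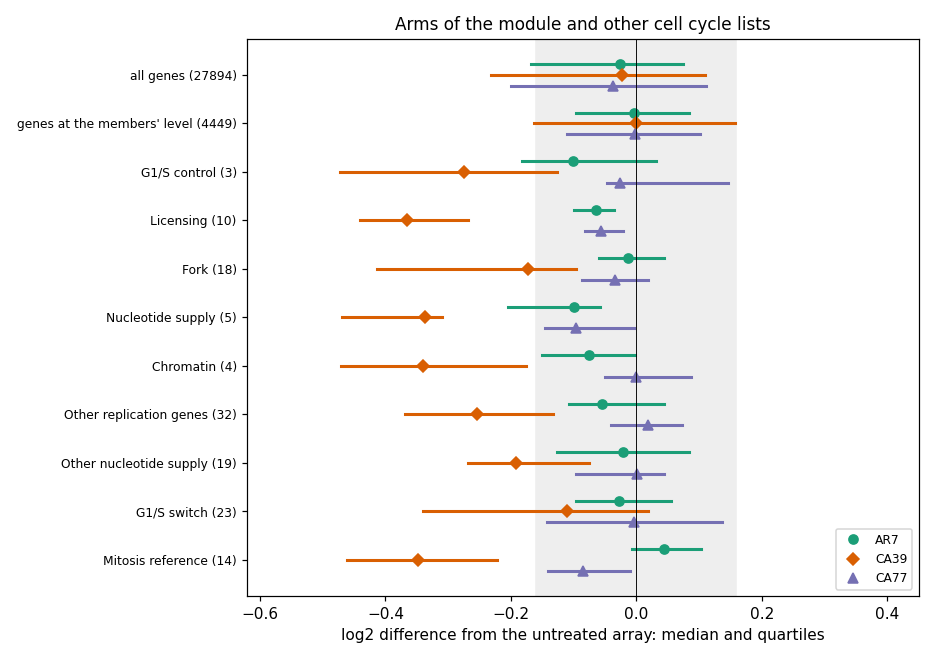
Median (point) and quartiles (line) of the log2 difference from untreated (x axis) for each arm and each further list (y axis, number of genes compared with CA39 in brackets), beside all genes and the genes at the members' level. The CA39 medians of all arms and lists lie between -0.37 and -0.11, and those of AR7 and CA77 lie nearer 0. The grey band is the tolerance of a single gene's difference.

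Position on the slide was read from the spots around each member's probe. The median difference of those neighbours with CA39 lay between -0.23 and 0.11, with a median of -0.05 over the members, and the members' median after their subtraction was -0.22. In the grid rows over 160 alone, which leaves out the upper part of each array, 25 members had a probe, 24 of them lay below 0 with CA39 and the median was -0.32. The part of position in the rest of the difference was not tested.

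**Figure D5:**
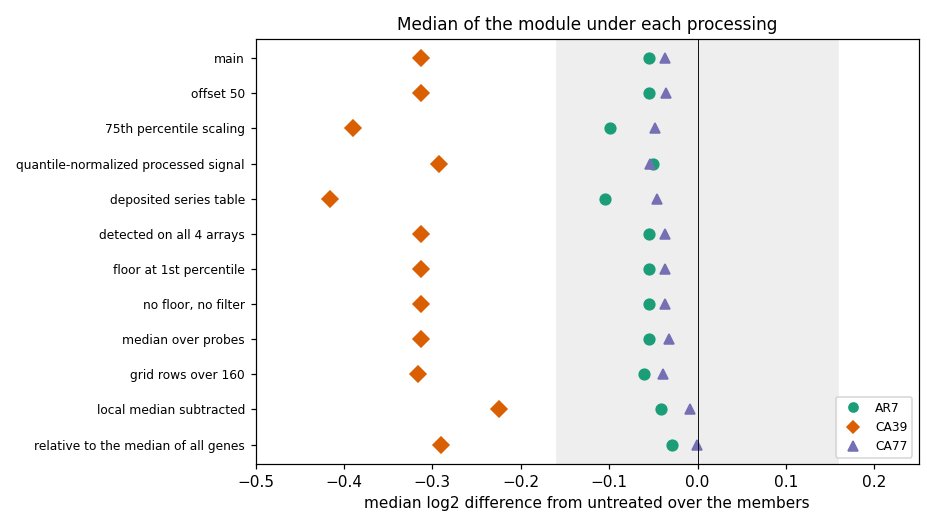
Median log2 difference from untreated over the members (x axis) for AR7, CA39 and CA77 under the processing reported and each of 11 alternatives (y axis). The CA39 medians lie between -0.42 and -0.22 and those of AR7 and CA77 lie no lower than -0.10. The grey band is the tolerance of a single gene's difference.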

How the data were processed

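Total RNA was labelled with Cy3 and hybridized to Agilent 8x60K mouse arrays, 1 per group. The authors read 62976 spots per array with Feature Extraction 10.7.3.1, of which 59305 carried gene probes, and deposited each spot's linear intensity and local background. The submitters' processing notes and the methods name oligo and RMA, but the deposited series table equals the background-subtracted intensity at all 62976 spots of each array, so it is neither scaled between arrays nor on a log scale. It served as an alternative, and the RMA steps were rebuilt from the spots.

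With limma 3.58.1 in R 4.3.3, spot medians were background-corrected (normexp, no offset), control spots were left out, and arrays were quantile normalized and put on the log2 scale. The design named the usual mean signal, and the median was used because the scanner values hold it. Outlier-flagged spots (142 to 328 per array) were left out, spots of a probe were averaged, and the brightest of several probes stood for a gene. Detection required more than 50% of a probe's spots to be well above background. Undetected values were raised to the array's lowest detected signal, which touched no member. Accessions were matched to RefSeq symbols of GRCm38.p6, naming 27512 of 55378 probes. The array design cites an earlier build, so the only coordinates are those of the RefSeq promoters.

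The tolerance is the square root of 2 times the median SD (log2) over spots of 399 probes printed 10 times. The number of arrays limits the precision, as each group has 1, and no p-value was computed. Counting was tested on simulated data. All 40 members are accounted for by rule, with values on every array for members past 1.5-fold and for the highest and lowest of each arm. The members, arms, further lists and markers were chosen with earlier results of these data known. Of the alternatives, 10 were planned and 1, centring on the median of all genes, was added after the data were seen, as was the use of the tolerance as a threshold. The values of 1 gene of the further lists are not reported here.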

Additional observations from a re-analysis of the deposited data

How the results depend on the processing

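Across 1521 values recomputed under 11 alternatives, 61 moved and 0 reversed. A count moved when it changed by over 1.5 times, and another value when it changed by more than the tolerance. It reversed only where a value beyond the tolerance changed sign, so values near 0, such as Ccne1 and Slbp with CA39, the fork arm's median with AR7 and the chromatin arm's with CA77, took both signs. The members' CA39 median lay between -0.42 and -0.22 and kept its sign in each. No paired analysis was possible because each group has 1 array, and for that reason no array could be left out in turn. The cause of the changes was not tested, except that the grid rows over 160 hold fewer genes and the filter for detection on all arrays compares fewer.

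With arrays scaled to the 75th percentile, members lower and higher beyond the tolerance with AR7 numbered 11 and 0 in place of 6 and 2. Past 2-fold with CA39 were 2 in place of 0, and past 1.5-fold lower 7 in place of 4, with 3 other replication genes in place of 1. For CA77 against AR7 0 members were lower in place of 3, and for CA39 against CA77 0 were higher in place of 1. In the deposited series table, 0 members were higher with AR7, 1 passed 2-fold and 7 were 1.5-fold lower with CA39, as were 3 other replication genes and 2 mitotic genes in place of 1, and 0 were higher for CA39 against CA77. With the quantile-normalized processed signal, 1 member was higher with AR7, 1 passed 2-fold with CA39, and 1465 of all genes passed 2-fold with CA77 in place of 905.

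With an offset of 50, all genes past 2-fold numbered 559 with AR7 in place of 853 and 554 with CA77, and 0 other replication genes were past 1.5-fold lower with CA39. Restricted to genes detected on all 4 arrays, 167, 693 and 174 of all genes passed 2-fold with AR7, CA39 and CA77, where 1476 had with CA39, and 4274 and 5345 were lower beyond the tolerance with AR7 and CA77 in place of 7311 and 8548. Without floor or filter 1 G1/S switch gene was past 1.5-fold lower with CA77, and with the median over probes 1 was with AR7, both in place of 0.

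In the grid rows over 160, 3 members were lower and 1 higher with AR7, and 1 was past 1.5-fold lower and 0 higher beyond the tolerance with CA39. The CA39 median of the G1/S control arm was -0.47 in place of -0.27, and -0.16 with the local median subtracted. There 0 G1/S switch genes were past 1.5-fold lower with CA39 in place of 2, and 0 mitotic genes in place of 1. All genes past 2-fold numbered 368, 796 and 352 with AR7, CA39 and CA77. Members below 0 with CA77 were 18 in place of 29, with CA77 against AR7 10 in place of 18, and with CA39 against CA77 24 in place of 37. For CA39 against AR7, 1 was past 1.5-fold lower and 0 higher, and for CA39 against CA77 0 were higher.

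After subtraction of the local median, 1 member was higher with AR7, 2 with CA39 and 6 with CA77 in place of 3. With CA39, 0 other replication genes and 1 G1/S switch gene were past 1.5-fold lower. For CA39 against AR7, 1 member was past 1.5-fold lower and 2 were higher, and for CA77 against AR7 0 were lower. Relative to the median of all genes, chosen after seeing the data, 3 members were higher for CA39 against AR7 in place of 1. The CA39 difference of Ccne2 ran from -1.11 to -0.52. All 40 members were well above background on every array.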
